A study of Mus musculus with 8 samples.

Results

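The proteasome genes described here were the 48 genes whose symbol in the deposited comparison table was Psm, followed by a letter from a to g and a number, out of 23984 genes tested. Genes with longer symbols that begin alike (Psmb5-ps, Psme2b, Psmc3ip) fell outside that rule. Each gene was read from its brightest transcript cluster (a set of probes along the gene), and all 48 members had a value on every array. Of them 19 encode subunits of the core particle, 17 subunits of the regulatory particle (19S in the plots), and 7 assembly factors; the last 5 are 4 activators and 1 inhibitor.

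The samples were prefrontal cortex (cingulate cortex) from male mice aged 12 weeks. On 4 arrays the RNA came from mice whose genotype was labelled Mll1 Ko, and on 4 from mice labelled wild-type. All 8 mice were kept under standard housing, then alone in the cage for a week, and were sampled at rest. The series title places the Kmt2a/Mll1 loss in neurons, but the deleted part, the promoter that drives the deletion and the strain are not given in the sources used here, and the tissue also holds glia and vessels. Values are the authors' RMA signals on the log2 scale, so a difference of 1 is a doubling of signal. Differences are Ko-labelled minus wild-type.

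The proteasome degrades proteins that carry ubiquitin chains. Its barrel-shaped core particle is built of outer alpha rings, which gate the entrance, and inner beta rings, which hold the peptidases. The regulatory particle caps the barrel: its ATPase ring unfolds substrates and threads them inward, and its other subunits bind ubiquitin chains and cut them off. In neurons the proteasome takes part in the turnover of synaptic proteins. Cells exposed to interferon replace the catalytic beta subunits by inducible ones, which favours peptides for antigen presentation.

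Facts of the whole series bear on these genes. Signals of Kmt2a, the targeted gene, were higher on the Ko-labelled arrays (10.35 ± 0.06) than on the wild-type arrays (10.06 ± 0.09, SD, n = 4 each; limma, adjusted p = 0.0142), so they do not check the label and the groups are named as labelled. In a principal component analysis the leading axis (42.7% of variance) had Ko-labelled arrays at -13.62 to -9.19 and wild-type arrays at 7.52 to 20.33, the farthest being replicate 1 of the wild-type arrays, while replicate 4 lay far from all others on the next axis, at -19.24. The 8 neuron markers averaged 12.20 to 12.23 on the Ko-labelled arrays and 12.24 to 12.29 on the wild-type arrays. Of them 1, Gad1, fell, where 5.69% of all genes fell. Snap25 (0.05) and Syt1 (0.06) were above 0, Gad2 was at 0.00, and the other markers were below 0, all without passing. After quantile normalization, described below, 2 of the 8 fell, where 1.92% of all genes fell. These were Gad1 (-0.26, limma, adjusted p = 0.0234) and Stmn2 (-0.25, adjusted p = 0.0212). With it 6 neuron markers were below 0 and 2 above. Genes of high signal were shifted upward and genes of low signal downward between the groups. Among the 10 classes of equal size by mean signal, the ninth (9.70 to 10.47) had a median difference of 0.067 log2 and the second (6.12 to 6.91) one of -0.12.

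Most proteasome genes lay slightly above wild-type on the Ko-labelled arrays, and few passed the test. Differences were above 0 for 41 of the 48 members, where 41.1% of all genes tested were above 0, and ranged from -0.21 to 0.29 log2. Their median was 0.10, and that of all genes tested -0.03. Past the threshold (limma, Benjamini-Hochberg adjusted p under 0.05 over all genes) 6 members rose, where 5.15% of all genes rose, and 1 member fell, where 5.69% of all genes fell. The rises were Psme1, Psmb1, Psmb7, Psma3, Psmd8 and Psmd5, and the fall was Psmb9. Values of the groups did not overlap for 13 members that were higher (9.47% of all genes) and for 1 that was lower (10.1% of all genes). At an unadjusted p under 0.05 the members counted 16 higher (12.7% of all genes) and 3 lower (20.3% of all genes). In bulk tissue, fewer cells of a type and less RNA per cell cannot be told apart.

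**Figure D1:**
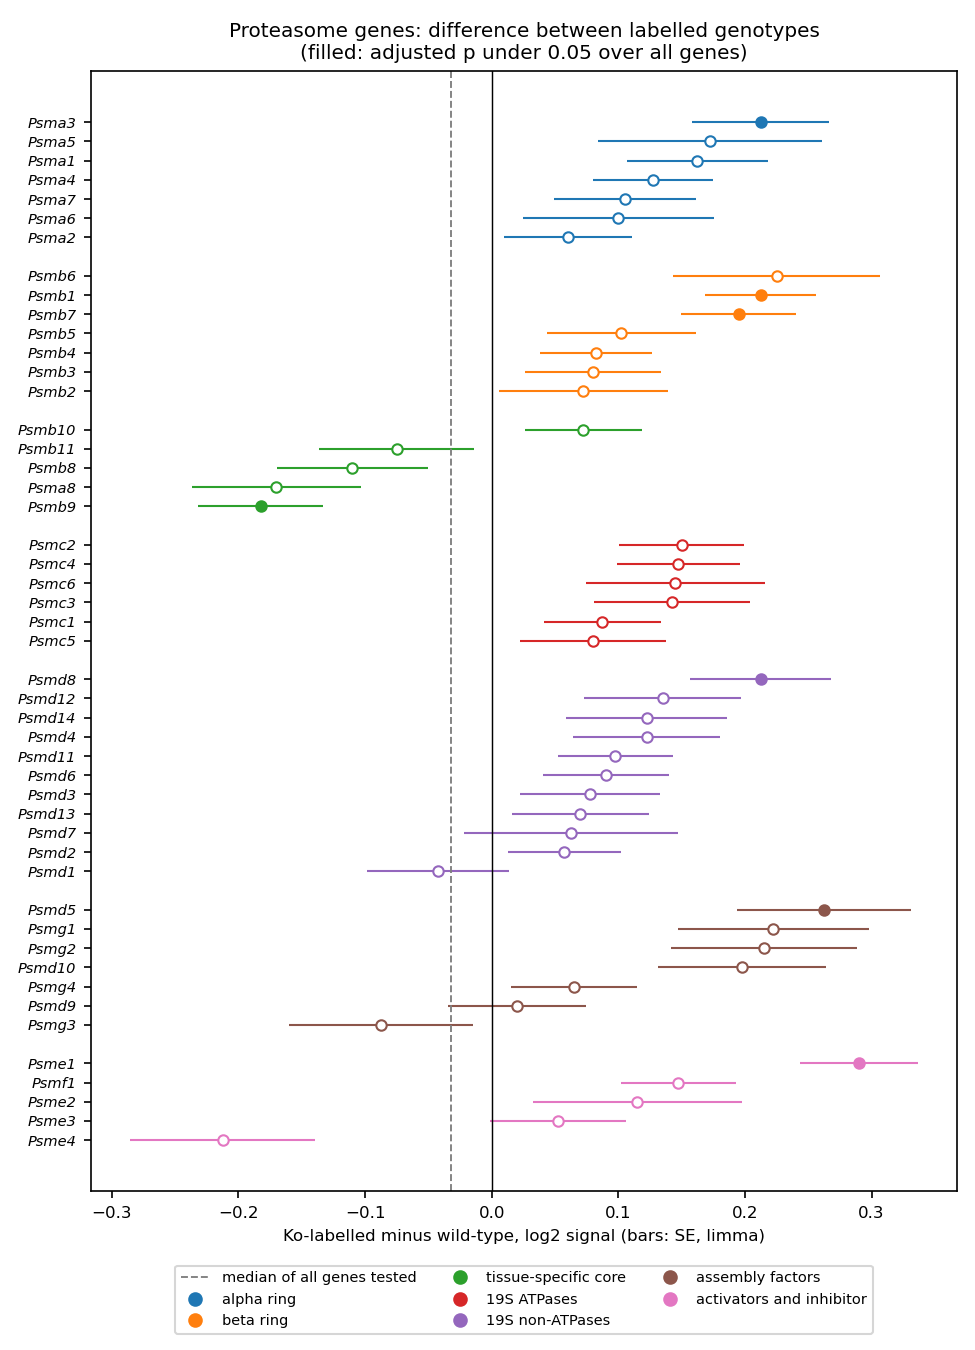
Difference in log2 signal (Ko-labelled minus wild-type) of each of the 48 proteasome genes, by class, with the standard error from limma as bars; filled points passed the threshold, and the dashed line is the median of all genes tested (-0.03). All 14 constitutive core genes lie right of 0, at 0.06 to 0.23, whereas 4 of the 5 tissue-specific core genes lie left of it.

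These shares have to be read against the signal of the members, whose mean lay between 6.59 and 11.99. Above 0 were 7 of 7 members in the eighth class by signal, 18 of 19 in the ninth and 8 of 9 in the brightest. Among all genes of these classes the shares above 0 were 71.1%, 75.9% and 73.6%. The 13 members that were higher without overlap all lay in these classes too. Of all genes there, in the same order, 18%, 22.8% and 23.9% were higher without overlap, so the 9.47% of all genes is a low yardstick for them. All 6 rises were among the 19 members in the ninth class by signal, where 11.2% of genes of any kind rose. There the members had a median difference of 0.145, and all genes of that class 0.067. In the brightest class, from 10.47, the 9 members had a median of 0.080 and all genes 0.065. After quantile normalization, which levels that shift, the medians were 0.077 for the members and 0.000 for all genes in the ninth class, and 0.006 for the members and -0.002 for all genes in the brightest. With it 36 of 48 members stayed above 0 (47.2% of all genes), and 1 rise (2.86% of all genes) and 2 falls (1.92% of all genes) passed. These were Psme1, and Psmb9 with Psme4. Groups then did not overlap for 9 members that were higher (7.86% of all genes) and 2 that were lower (7.32% of all genes).

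The counts of members past the threshold depended on the arrays and the scaling. Without Ko-labelled replicate 3, 1 member rose (1.66% of all genes) and 0 fell (1.31% of all genes). Without wild-type replicates 1 and 4 together, an alternative chosen after seeing the data, 1 rose (1.77% of all genes) and 0 fell (1.65% of all genes), and in both cases the rise was Psme1. With arrays centred on their medians 10 rose (7.68% of all genes) and 0 fell (3.26% of all genes). With the replicate number as a block 5 rose (3.33% of all genes) and 0 fell (3.16% of all genes). With array weights 10 rose (7.07% of all genes) and 2 fell (10.3% of all genes). Cyclic loess gave 1 rise (3.11% of all genes) and 2 falls (1.97% of all genes), and the unmoderated test 4 rises (2.3% of all genes) and 0 falls (1.6% of all genes).

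Leaving out each other array gave the following counts. Without Ko-labelled replicate 1, 4 members rose (2.78% of all genes) and 0 fell (2.08%). Without Ko-labelled replicate 2, 2 rose (2.11%) and 0 fell (1.51%), and without Ko-labelled replicate 4, 3 rose (3.02%) and 1 fell (4.0%). Psmb1 and Psme1 were among the rises in all of these. Without wild-type replicate 1, 3 rose (2.44%) and 0 fell (1.99%), and without wild-type replicate 2, 6 rose (3.29%) and 1 fell (2.74%). Without wild-type replicate 3, 5 rose (4.24%) and 0 fell (5.37%), and without wild-type replicate 4, 8 rose (6.28%) and 1 fell (7.32%).

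**Figure D2:**
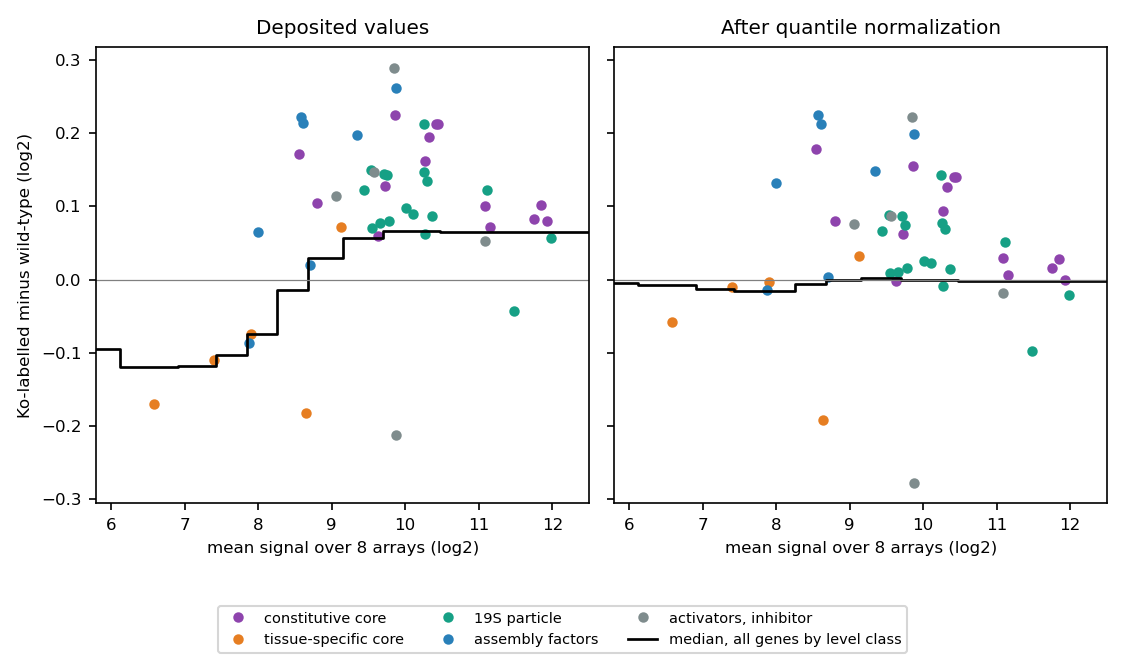
Difference of each proteasome gene (Ko-labelled minus wild-type, log2) against its mean signal over the 8 arrays (log2), in the deposited values (left) and after quantile normalization (right); the black step line is the median of all genes in each of 10 classes of equal size by signal. On the left the line climbs from -0.12 to 0.067; on the right it lies between -0.016 and 0.002 and 36 of the 48 members are above 0.

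Structural alpha subunits form the gate of the core. Psma3 stood at 10.51, 10.61, 10.57 and 10.54 on the Ko-labelled arrays and at 10.25, 10.42, 10.29 and 10.42 on the wild-type arrays. Every Ko-labelled array lay above every wild-type array, and the difference was 0.21 ± 0.05 log2 (SE), a 1.16-fold signal (limma, adjusted p = 0.0333). A second cluster carries the same symbol, with 10.39, 10.50, 10.43 and 10.44 on the Ko-labelled arrays against 10.15, 10.28, 10.21 and 10.44 on the wild-type arrays, where the groups overlapped through wild-type replicate 4. With both clusters averaged Psma3 did not pass (adjusted p = 0.0525). Nor did it pass after quantile normalization (0.14, adjusted p = 0.109), or without any 1 of Ko-labelled replicates 1 to 4 or wild-type replicates 1 and 3 (adjusted p from 0.0549 to 0.0889).

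The other 6 alpha genes had differences of 0.06 to 0.17 and did not pass. Psma1 was at 10.30, 10.35, 10.43 and 10.32 on the Ko-labelled arrays and at 10.06, 10.21, 10.22 and 10.26 on the wild-type arrays, again without overlap (0.16 ± 0.06, limma, adjusted p = 0.0763). Psma4 did not overlap either, while Psma2, Psma5, Psma6 and Psma7 did.

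In the beta rings, Psmb1, a non-catalytic subunit, was at 10.48, 10.51, 10.55 and 10.55 on the Ko-labelled arrays and at 10.31, 10.31, 10.34 and 10.28 on the wild-type arrays. The gap between the groups was wider than the range within either, and the difference was 0.21 ± 0.04 log2 (SE, limma, adjusted p = 0.0168). Psmb7, which carries the trypsin-like activity, was at 10.36, 10.45, 10.47 and 10.41 on the Ko-labelled arrays and at 10.24, 10.24, 10.20 and 10.23 on the wild-type arrays, with no overlap (0.20 ± 0.05, adjusted p = 0.0251). Without Ko-labelled replicate 3 neither passed (adjusted p = 0.0591 for Psmb1 and 0.0787 for Psmb7), and without Ko-labelled replicate 2 Psmb7 did not (adjusted p = 0.0681). After quantile normalization the differences were 0.14 for Psmb1 and 0.13 for Psmb7 and did not pass (adjusted p = 0.0891 and 0.133).

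Both other catalytic subunits were above wild-type without passing. Psmb6, the caspase-like peptidase, was at 9.95, 9.94, 10.06 and 9.97 on the Ko-labelled arrays and at 9.75, 9.89, 9.89 and 9.49 on the wild-type arrays. The groups did not overlap, but wild-type replicate 4 lay well below its group, and the difference was 0.23 ± 0.08 (SE, limma, adjusted p = 0.0884), or 0.14 without that array. Psmb5, the chymotrypsin-like peptidase, was at 11.89, 11.87, 11.91 and 11.92 on the Ko-labelled arrays and at 11.88, 11.76, 11.89 and 11.65 on the wild-type arrays, which overlapped (0.10 ± 0.06, adjusted p = 0.234). Without wild-type replicate 4 the Psmb5 difference was 0.05. Psmb2, Psmb3 and Psmb4 had differences of 0.07 to 0.08, and of these only Psmb4 had groups that did not overlap.

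**Figure D3:**
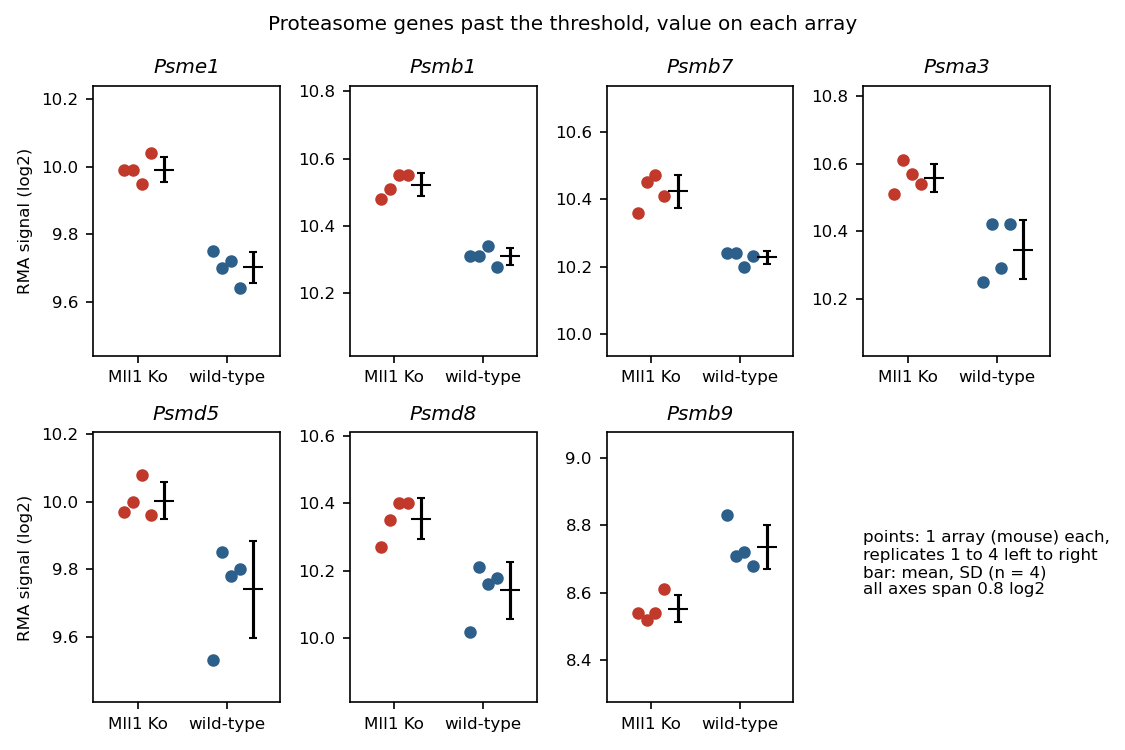
RMA signal (log2) of the 7 proteasome genes past the threshold on each array, Mll1 Ko left and wild-type right, with the mean and SD (n = 4) beside the points; all axes span 0.8 log2. In 6 genes every Mll1 Ko point lies above every wild-type point, and in Psmb9 every Mll1 Ko point lies below, at 8.52 to 8.61 against 8.68 to 8.83.

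Of the 5 inducible or tissue-restricted core subunits 1 fell, Psmb9; 3 others were below 0 and Psmb10 above 0 without passing, and the difference between these 5 and the constitutive subunits was not tested. Psmb9 (LMP2), the interferon-inducible replacement of Psmb6, was at 8.54, 8.52, 8.54 and 8.61 on the Ko-labelled arrays and at 8.83, 8.71, 8.72 and 8.68 on the wild-type arrays. It fell by 0.18 ± 0.05 log2 (SE, limma, adjusted p = 0.0395), with no overlap, and kept its call and size after quantile normalization (-0.19, adjusted p = 0.0486). The call ended without any 1 of Ko-labelled replicates 1 to 3 or wild-type replicates 1 to 3 (adjusted p from 0.0575 to 0.101).

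Psmb8 (LMP7), which replaces Psmb5, was at 7.25, 7.40, 7.31 and 7.42 on the Ko-labelled arrays and at 7.57, 7.40, 7.48 and 7.37 on the wild-type arrays. These overlapped, and the difference of -0.11 ± 0.06 (limma, adjusted p = 0.214) was -0.01 after quantile normalization and -0.07 without wild-type replicate 1. Psmb10 (MECL-1), which replaces Psmb7, was at 9.16, 9.12, 9.16 and 9.20 on the Ko-labelled arrays and at 9.03, 9.14, 9.11 and 9.07 on the wild-type arrays (0.07 ± 0.05, adjusted p = 0.282). Psma8, known from testis, had the lowest signal of all members, at 6.45 to 6.56 on the Ko-labelled arrays and 6.48 to 6.79 on the wild-type arrays, and Psmb11, known from thymus, was at 7.83 to 7.93 on the Ko-labelled arrays and 7.77 to 8.03 on the wild-type arrays. Neither passed (-0.17, adjusted p = 0.108, and -0.08, adjusted p = 0.401), although Psma8 did without wild-type replicate 2 (-0.23, adjusted p = 0.0394), and no test against background was made for such low signals. Genes of any kind in the signal classes of Psma8, Psmb8 and Psmb11 had median differences of -0.12, -0.118 and -0.075, while the class of Psmb9 had -0.015.

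Each inducible subunit takes the place of its constitutive partner in a newly built core, so the difference between the log2 signals of a pair was followed from array to array. Psmb9 minus Psmb6 was -1.41, -1.42, -1.52 and -1.36 on the Ko-labelled arrays and -0.92, -1.18, -1.17 and -0.81 on the wild-type arrays. No values overlapped, which was given beforehand, since neither gene's groups overlapped and the genes differed in opposite directions. The shift of -0.41 log2 joins the fall of Psmb9 to the difference of Psmb6, which did not pass. Without wild-type replicate 4 the Psmb6 difference was 0.14. After quantile normalization the shift was -0.35, still without overlap. Psmb8 minus Psmb5 shifted by -0.21 without overlap, but by -0.04 with overlap after quantile normalization. Psmb10 minus Psmb7 shifted by -0.12 with overlap (-0.10 after quantile normalization). The 2 probe sets of a pair need not respond alike, so only the shift between groups is read, not the level of the ratio.

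**Figure D4:**
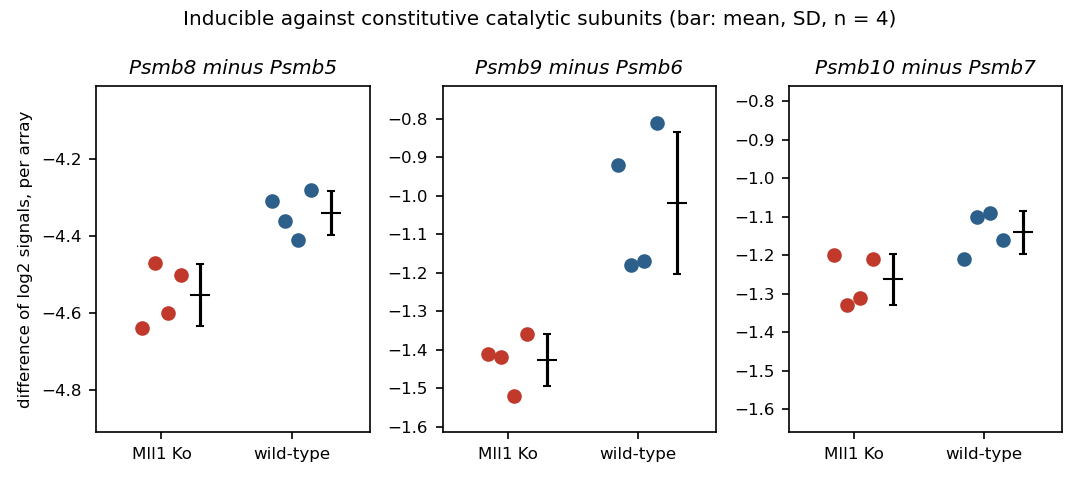
Log2 signal of an inducible catalytic subunit minus that of the constitutive subunit it replaces, on each array, Mll1 Ko left and wild-type right, with mean and SD (n = 4). Psmb9 minus Psmb6 averages -1.43 on Mll1 Ko arrays and -1.02 on wild-type arrays with no overlap, as neither gene overlaps on its own. Psmb10 minus Psmb7 overlaps.

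Psmb9 lies next to Tap1, a subunit of the peptide transporter of antigen presentation, in the reference annotation, and the pair is transcribed away from a common stretch of 225 bases. Psmb8 and Tap2, the other transporter subunit, follow on the far side of Tap1. These neighbours were singled out after their values were seen. Tap1 was at 7.99, 8.04, 8.05 and 8.12 on the Ko-labelled arrays and at 8.19, 8.29, 8.19 and 8.21 on the wild-type arrays. It fell by 0.17 ± 0.05 log2 (SE, limma, adjusted p = 0.0460) with no overlap, and did not pass after quantile normalization (-0.12, adjusted p = 0.143) or with arrays centred (-0.14, adjusted p = 0.0830). The Tap1 call also ended without any 1 of Ko-labelled replicates 1 to 3 or wild-type replicates 1 to 3 (adjusted p from 0.0597 to 0.113). Tap2 was at 8.38, 8.39, 8.44 and 8.51 on the Ko-labelled arrays and at 8.50, 8.51, 8.43 and 8.55 on the wild-type arrays, and did not pass (-0.07 ± 0.05, adjusted p = 0.351).

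Upstream sequences were available for 40 of the 48 members, among them 5 of the 7 that passed (not Psmb1 and Psmb7). They are shown because these genes are the ones whose signals differed past the threshold. Each runs 5′ to 3′ on the gene's own strand and ends at the base before the annotated start, from RefSeq on GRCm38.p6. Capitals mark the CCAAT box (CCAAT) and the GC box (GGGCGG), each on either strand. The Psmb9 stretch is the whole interval shared with Tap1.
Psmb9, chr17:34187331-34187555, minus strand: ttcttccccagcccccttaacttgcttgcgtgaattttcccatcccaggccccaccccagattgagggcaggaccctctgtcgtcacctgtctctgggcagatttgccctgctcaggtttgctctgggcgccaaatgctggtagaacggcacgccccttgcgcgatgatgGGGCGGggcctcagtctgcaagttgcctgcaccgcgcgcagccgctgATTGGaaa
Psme1, chr14:55578244-55578493, plus strand: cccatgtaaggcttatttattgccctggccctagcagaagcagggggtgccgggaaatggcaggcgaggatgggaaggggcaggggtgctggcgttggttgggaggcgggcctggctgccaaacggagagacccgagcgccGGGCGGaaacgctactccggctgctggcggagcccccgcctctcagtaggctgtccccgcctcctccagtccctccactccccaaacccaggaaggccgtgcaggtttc
Psma3, chr12:70974373-70974622, plus strand: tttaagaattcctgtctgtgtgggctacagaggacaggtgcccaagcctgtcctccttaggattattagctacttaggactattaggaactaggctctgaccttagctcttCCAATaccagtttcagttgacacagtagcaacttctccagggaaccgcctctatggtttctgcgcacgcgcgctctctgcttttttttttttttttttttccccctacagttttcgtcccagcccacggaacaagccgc
Psmd8, chr7:29180674-29180923, minus strand: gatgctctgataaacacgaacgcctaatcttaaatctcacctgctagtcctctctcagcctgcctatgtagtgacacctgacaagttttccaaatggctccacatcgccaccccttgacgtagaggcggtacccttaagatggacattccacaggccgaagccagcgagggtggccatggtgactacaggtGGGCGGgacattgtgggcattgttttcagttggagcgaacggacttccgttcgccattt
Psmd5, chr2:34870963-34871212, minus strand: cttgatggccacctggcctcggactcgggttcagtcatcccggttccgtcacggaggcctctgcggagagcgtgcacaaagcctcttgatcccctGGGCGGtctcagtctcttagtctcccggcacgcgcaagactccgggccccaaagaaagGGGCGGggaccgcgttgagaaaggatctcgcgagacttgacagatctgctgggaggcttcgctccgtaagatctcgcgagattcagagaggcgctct

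In the 250 bases before the start, the GC box was in 22 of the 40 members' sequences and in 32.9% of all 27025 genes' sequences. The CCAAT box was in 14 of 40 (34.5% of all). The core of the ETS factor site (CCGGAAG) was in 11 of 40 (7.05% of all), and in none of the 4 rises with a sequence. Its matches were in the ATPase genes Psmc1, Psmc2 and Psmc6 and the non-ATPase genes Psmd2, Psmd4, Psmd6, Psmd11 and Psmd12. The others were in Psme3, Psme4 and Psmg1. The core of the antioxidant response element (TGACNNNGC), to which the proteasome gene activator NFE2L1 binds, was in 5 of 40 (10.1% of all), including Psmb5 and Psmb6. The core of the interferon-stimulated response element was in 3 of 40 (3.04% of all), and the gamma-activated site (TTCNNNGAA) in 2 of 40 (7.18% of all), Psmb8 and Psmg1. Both strands were searched, no motif overlapped another within the sequences printed, and a match describes letters only.

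The ATPase ring of the regulatory particle had no member past the threshold, although all 6 genes were above wild-type, at 0.08 to 0.15 log2. Psmc2 was at 9.59, 9.62, 9.64 and 9.57 on the Ko-labelled arrays and at 9.44, 9.53, 9.48 and 9.37 on the wild-type arrays (0.15 ± 0.05, SE, limma, adjusted p = 0.0677). Psmc4 was at 10.33, 10.26, 10.38 and 10.36 on the Ko-labelled arrays and at 10.15, 10.19, 10.25 and 10.15 on the wild-type arrays (0.15 ± 0.05, adjusted p = 0.0681). Neither gene had overlapping groups, while the other 4 ATPase genes had. In the signal classes of Psmc2 and Psmc4, 18% and 22.8% of all genes were higher without overlap, and 71.1% and 75.9% were above 0. The other ATPase genes lay in the class of Psmc4. The Psmc3 cluster is described as also covering a predicted gene, so its difference of 0.14 may not be of Psmc3 alone.

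Among the 11 non-ATPase subunits 1 rose. Psmd8 (Rpn12), a lid subunit, was at 10.27, 10.35, 10.40 and 10.40 on the Ko-labelled arrays and at 10.02, 10.21, 10.16 and 10.18 on the wild-type arrays. The groups did not overlap, and the difference was 0.21 ± 0.06 log2 (SE, limma, adjusted p = 0.0355), but it did not pass after quantile normalization (0.14, adjusted p = 0.105) or without any 1 of Ko-labelled replicates 2 to 4 or wild-type replicates 1 and 3 (adjusted p from 0.0528 to 0.0984). The groups overlapped for the other 10. The deubiquitinase gene Psmd14 (Rpn11) had a difference of 0.12, and the ubiquitin receptor gene Psmd4 (Rpn10) also 0.12. Psmd12, a lid subunit, was at 10.33 to 10.39 on the Ko-labelled arrays and 10.07 to 10.38 on the wild-type arrays (0.14 ± 0.06, adjusted p = 0.153). The Psmd12 difference was 0.08 without wild-type replicate 1, and 0.19 without wild-type replicate 4, where it passed (adjusted p = 0.0431). Psmd1 (Rpn2), a large scaffold subunit, was at 11.52, 11.48, 11.45 and 11.37 on the Ko-labelled arrays and at 11.37, 11.53, 11.54 and 11.55 on the wild-type arrays, and its difference of -0.04 ± 0.06 (adjusted p = 0.612) was the only one below 0 in the regulatory particle. With 1 array left out it lay between -0.09 (without wild-type replicate 1) and -0.01 (without Ko-labelled replicate 4).

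Assembly factors bind subunits during construction and are released. Psmd5, a chaperone of the ATPase base, was at 9.97, 10, 10.08 and 9.96 on the Ko-labelled arrays and at 9.53, 9.85, 9.78 and 9.80 on the wild-type arrays. It rose by 0.26 ± 0.07 log2 (SE, limma, adjusted p = 0.0355) with no overlap, and did not pass after quantile normalization (0.20, adjusted p = 0.0805). The call also ended without any 1 of the Ko-labelled replicates or without wild-type replicate 1 (adjusted p from 0.0545 to 0.0987), and without wild-type replicate 1, the lowest array, the difference was 0.19. Psmd10 (gankyrin), another base chaperone, was at 9.43, 9.45, 9.42 and 9.46 on the Ko-labelled arrays and at 9.08, 9.28, 9.42 and 9.19 on the wild-type arrays, the highest of which ties with a Ko-labelled one (0.20 ± 0.07, adjusted p = 0.0726). Without that array, wild-type replicate 3, Psmd10 passed (0.26, adjusted p = 0.0292).

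Psmg1 and Psmg2, whose products form a pair that helps to build the alpha ring, had differences of 0.22 ± 0.08 and 0.22 ± 0.07 (SE, limma, adjusted p = 0.0737 and 0.0752). Psmg1 was at 8.60 to 8.81 on the Ko-labelled arrays and 8.25 to 8.60 on the wild-type arrays, and Psmg2 at 8.62 to 8.76 on the Ko-labelled arrays and 8.29 to 8.66 on the wild-type arrays. Psmg3 and Psmg4, the partners of the second alpha-ring chaperone pair, were at -0.09 (adjusted p = 0.409) and 0.07 (adjusted p = 0.371), and the base chaperone gene Psmd9 at 0.02 (adjusted p = 0.817). Psmg3 was at -0.03 without Ko-labelled replicate 2 and at -0.03 without wild-type replicate 1.

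Activators open the core without ATP. Psme1 (PA28 alpha), a subunit of the interferon-inducible cap, was at 9.99, 9.99, 9.95 and 10.04 on the Ko-labelled arrays and at 9.75, 9.70, 9.72 and 9.64 on the wild-type arrays. The closest values of the groups were 0.20 log2 apart, and the difference of 0.29 ± 0.05 (SE), or 1.22-fold, was the largest among the 48 (limma, adjusted p = 0.00540). It also passed after quantile normalization (0.22, adjusted p = 0.0265) and without each single array. Psme2 (PA28 beta), its partner in that cap, was at 9.20, 9.08, 8.95 and 9.24 on the Ko-labelled arrays and at 9.01, 9.13, 9.08 and 8.79 on the wild-type arrays, with overlap (0.12 ± 0.08, adjusted p = 0.338). Whether probes of Psme2 also read Psme2b, a gene described as the same activator subunit, was not tested.

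The remaining activators differed in sign. Psme3 (PA28 gamma), the nuclear form, had a difference of 0.05 (limma, adjusted p = 0.504). Psme4 (PA200), a large nuclear activator, was at 9.83, 9.86, 9.79 and 9.60 on the Ko-labelled arrays and at 9.83, 10.01, 9.97 and 10.12 on the wild-type arrays. The groups overlapped at 9.83 to 9.86. Its difference of -0.21 ± 0.07 did not pass in the deposited values (adjusted p = 0.0762) but passed after quantile normalization (-0.28, adjusted p = 0.0387). Psmf1 (PI31), first described as an inhibitor, was at 9.60, 9.67, 9.65 and 9.65 on the Ko-labelled arrays and at 9.43, 9.53, 9.51 and 9.51 on the wild-type arrays, without overlap (0.15 ± 0.05, adjusted p = 0.0569; after quantile normalization 0.09, adjusted p = 0.234). Psmf1 passed with arrays centred (adjusted p = 0.0349), with dim genes left out, with either other variance model and with array weights (adjusted p from 0.0417 to 0.0455).

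Set side by side, core subunits had 3 rises and 1 fall among 19 genes and a median difference of 0.10, regulatory particle subunits 1 rise among 17 and a median of 0.10, and assembly factors 1 rise among 7 and a median of 0.20. The median of the 14 constitutive core genes was 0.12, and that of the 5 tissue-specific core genes -0.11. After quantile normalization the medians were 0.03 for core subunits, 0.03 for regulatory particle subunits and 0.15 for assembly factors. Over all genes 5.15% rose and 5.69% fell, and 11.2% rose in the ninth signal class, so 1 rise among 17 is about the share of any genes. None of these medians was tested, and members are not replicates. The assembly median rests on 4 genes (Psmd5, Psmg1, Psmg2 and Psmd10) at 0.20 to 0.26, with the other 3 at -0.09 to 0.07.

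On each array the median deviation of a class from its genes' own means was taken per mouse. Constitutive core genes lay at 0.03 to 0.13 on the Ko-labelled arrays and -0.12 to -0.03 on the wild-type arrays, and regulatory particle genes lay at 0.03 to 0.09 on the Ko-labelled arrays and -0.10 to -0.01 on the wild-type arrays. Assembly factors lay at 0.04 to 0.08 on the Ko-labelled arrays and -0.11 to 0.02 on the wild-type arrays. Tissue-specific core genes lay at -0.07 to -0.03 on the Ko-labelled arrays and 0.02 to 0.17 on the wild-type arrays. After quantile normalization the tissue-specific core genes overlapped, at -0.04 to 0.02 on the Ko-labelled arrays and -0.0008 to 0.07 on the wild-type arrays, whereas the constitutive core genes did not, at 0.01 to 0.09 on the Ko-labelled arrays and -0.09 to -0.01 on the wild-type arrays. In the deposited values Ko-labelled replicate 3 was highest in the first 3 of these classes, and wild-type replicate 1 lowest in the regulatory particle.

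**Figure D5:**
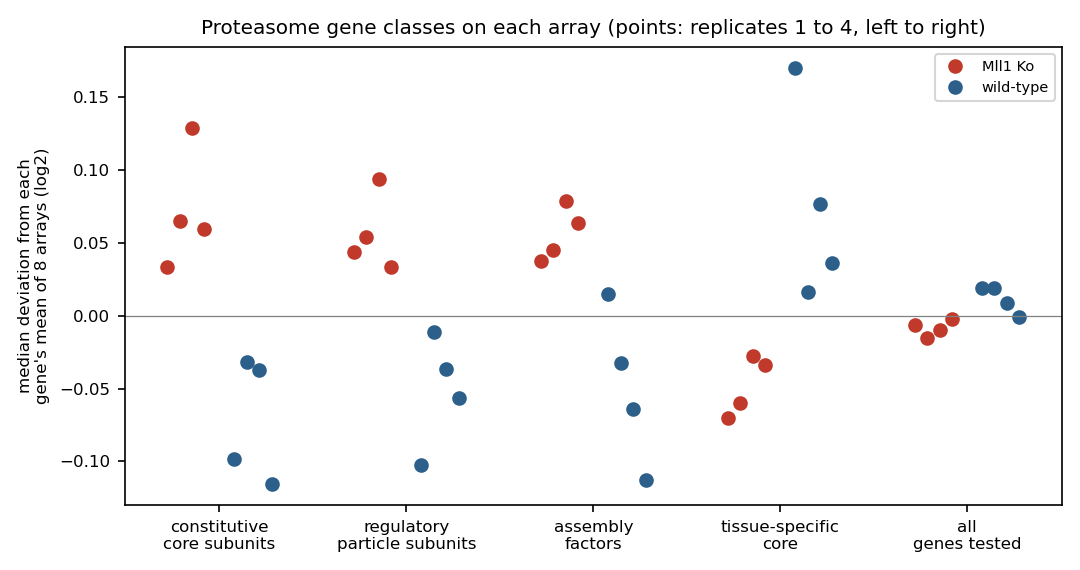
Median deviation (log2) of each class of proteasome genes, and of all genes tested, from each gene's mean over the 8 arrays, for every array, Mll1 Ko left and wild-type right within a class (replicates 1 to 4 from left to right). The 3 constitutive classes lie above 0 on all Mll1 Ko arrays; the tissue-specific core lies at -0.07 to -0.03 there and at 0.02 to 0.17 on wild-type arrays.

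Other genes of the pathway were read from lists by role, and their counts stand against the 5.15% of all genes that rose and the 5.69% that fell. Among 9 further proteasome subunits and bound proteins 1 rose and none fell. It was Shfm1 (Sem1 or Rpn15), a small subunit of the regulatory particle, at 8.94, 8.90, 8.94 and 8.89 on the Ko-labelled arrays and 8.67, 8.70, 8.73 and 8.61 on the wild-type arrays (0.24 ± 0.05, SE, limma, adjusted p = 0.0125; after quantile normalization 0.22, adjusted p = 0.0148). Pomp, a core assembly factor outside the symbol rule, did not overlap between groups and did not pass (0.19, adjusted p = 0.0682). Of 12 ubiquitin shuttles and Vcp partners 1 rose, Nsfl1c (p47), a cofactor of the Vcp segregase, at 9.91, 10.03, 9.90 and 10 on the Ko-labelled arrays and 9.59, 9.61, 9.60 and 9.67 on the wild-type arrays (0.34 ± 0.05, adjusted p = 0.00312; after quantile normalization 0.28, adjusted p = 0.00972).

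Of 16 genes of ubiquitin and its activation or recycling 2 rose. They were the deubiquitinase gene Uchl3 (0.21 ± 0.05, limma, adjusted p = 0.0320) and Rps27a, which encodes ubiquitin fused to a ribosomal protein (0.24 ± 0.06, adjusted p = 0.0342), and neither passed after quantile normalization (adjusted p = 0.0521 and 0.0599). Uchl3 did not pass without any 1 of Ko-labelled replicates 2 to 4 or wild-type replicates 1 and 3 (adjusted p from 0.0524 to 0.0886), nor Rps27a without any 1 Ko-labelled array or wild-type replicate 1 (adjusted p from 0.0630 to 0.0855). None of 12 regulators of proteasome genes passed, with Nfe2l1, the main activator of these genes, at 0.02 (adjusted p = 0.781) and Ngly1, which processes its protein, at 0.12 (adjusted p = 0.156). Unadjusted p was under 0.05 for 0 of these 12, where 12.7% of all genes were higher and 20.3% lower at that level. Of 11 antigen processing partners none rose and 1 fell, Tap1, and B2m (-0.16, adjusted p = 0.258) and H2-K1 (0.12, adjusted p = 0.121) lay on opposite sides of 0.

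Markers of other cell types were read beside the members. Of 7 microglia markers 6 were above 0 and none passed; their signals summed to 63.27 to 63.97 on the Ko-labelled arrays and 62.68 to 63.35 on the wild-type arrays. All 5 endothelial markers were below 0 and none passed, with sums of 46.03 to 47.49 on the Ko-labelled arrays and 46.77 to 47.56 on the wild-type arrays. Both blood markers with a value, Hba-a1 (-0.39, limma, adjusted p = 0.0557) and Alas2 (-0.22, adjusted p = 0.0308), were lower without overlap. Their sums were 17.71 to 18.37 on the Ko-labelled arrays and 18.52 to 18.85 on the wild-type arrays. After quantile normalization neither Hba-a1 (-0.46, adjusted p = 0.0506) nor Alas2 (-0.15, adjusted p = 0.119) passed. All 6 oligodendrocyte markers were below 0 and none passed (median -0.09, and -0.17 after quantile normalization), with sums of 67.64 to 68.99 on the Ko-labelled arrays and 68.43 to 69.11 on the wild-type arrays.

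Of 4 choroid plexus markers 3 were below 0 and none passed (median -0.15), with sums of 29.89 to 30.89 on the Ko-labelled arrays and 30.13 to 32.97 on the wild-type arrays. The highest was wild-type replicate 1, where their mean was 8.24, against 7.53 to 7.65 on the other wild-type arrays. Most of the wild-type spread was in Ttr, at 7.16 to 9.35 (SD 1.08). The wild-type SDs of Kl, Folr1 and Kcnj13 were 0.06, 0.13 and 0.14. The median deviation of the 4 markers was 0.24 on wild-type replicate 1, against -0.08 to 0.06 on the other wild-type arrays. Wild-type replicate 1 also had the lowest wild-type value of Psma3, Psmd8 and Psmd5. Among the other members past the threshold it had the highest wild-type value of Psme1 (9.75) and Psmb9 (8.83). It shared the highest of Psmb7 (10.24) and lay within the range of the other wild-type arrays for Psmb1 (10.31). Of 6 astrocyte markers 3 and of 4 mural cell markers 1 were above 0, none passed, and the sums of both lists overlapped between groups. The part of these markers in the differences of proteasome genes was not tested.

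The authors' deposited table gave 4 of the members' clusters an FDR p-value under 0.05, against 4.13% of all its clusters. In the authors' deposited table these were Psmb1 (0.0129), Psme1 (0.0136), Psmb7 (0.0217) and Psmf1 (0.0426). Its fold is positive where wild-type is higher, and stood at -1.21 for Psme1 and -1.16 for Psmb1, so both were higher on the Ko-labelled side there too, while Psmb9 had 1.12 and an FDR p-value of 0.0585 in the authors' deposited table.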

How the data were processed

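Total RNA of 8 mice was measured on 8 Affymetrix arrays (WT PLUS labelling, per the labels' protocols). The deposited values were the authors' log2 RMA signals of 35556 transcript clusters. Affymetrix Expression Console, RMA and Transcriptome Analysis Console 3.0 were used, per the submitters' processing notes; array model, build and annotation are not given in the sources used here. A second deposited table gave the authors' bi-weight mean log2 signals, a signed fold (a score, negative where the knockout is higher), ANOVA p-values and FDR p-values for 28944 clusters, per the file headers, and supplied the gene symbols. Clusters described with several genes were left out (1436 in all), except that of Psmc3, a member by symbol, and 1 cluster per gene, the brightest over all arrays, was kept.

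Differences were fitted with limma 3.58.1 (lmFit, eBayes) in R 4.3.3 over 23984 genes with genotype as the only factor and no further normalization, with Benjamini-Hochberg adjustment over all genes. The fit was tested on simulated data, where it recovered 2% of changes of 0.15 log2, 18% of 0.25 and 76% of 0.5. Only 50 genes were changed by each amount there, whereas 1236 genes rose and 1364 fell in the data. The adjusted p depends on how many genes differ, so these shares need not hold for the members. A member that did not pass may still differ by such small amounts. Errors are SE from limma for differences and SD for levels. Arrays give no count depth, so their number limits the precision. Array medians lay between 7.99 and 8.0 on the Ko-labelled arrays and between 8.04 and 8.08 on the wild-type arrays, without overlap. Lower quartiles did not overlap either, at 6.80 to 6.83 on the Ko-labelled arrays and 6.89 to 6.94 on the wild-type arrays. No label says that arrays of a group are separate litters or days, so p-values measure the spread between these mice.

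Named were all members past the threshold, the 2 lowest p-values and the largest opposite difference of each class, the 3 exchange pairs, Kmt2a, and per pathway list up to 4 passing genes or the lowest p. The members and lists were chosen with earlier results of these data known. Of 67 pathway entries 60 had a tested gene, and of 43 marker entries 42 had. Promoter sequences and the order of genes came from RefSeq (GRCm38.p6), with the entry listed first for genes with several. Alternatives were quantile and cyclic loess normalization (3 iterations), centring, a filter on dim genes, other variance models, array weights, cluster choice, a replicate block and each array left out; leaving out wild-type replicates 1 and 4 together was added after the data were seen.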

Additional observations from a re-analysis of the deposited data

Results flagged for a closer look

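Among 28 named genes, 56 groups of 4 arrays were examined for an array far from its group, and 1 was found; chance flags about 1 group in 20. Psmd1 in wild-type replicate 1 was at 11.37, and the other 3 wild-type arrays were at 11.53 to 11.55. The Ko-labelled arrays, at 11.37 to 11.52, span that value.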

How the results depend on the processing

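The number of members that rose was 6 with all arrays and the deposited values, 1 after quantile normalization, 1 after cyclic loess, 10 with arrays centred on their medians and 10 with array weights, where 1236, 685, 745, 1843 and 1695 of all genes rose; the number that fell was 1, and became 2, 2, 0 and 2 under the same settings, where 1364 of all genes fell with the deposited values and 461, 473, 782 and 2469 under these. It was also 0 with the unmoderated test and 0 with the replicate block. Leaving out arrays gave 1 to 8 rises and 0 to 1 falls, with 2 rises without Ko-labelled replicate 2, 1 without Ko-labelled replicate 3, 3 without Ko-labelled replicate 4 and 3 without wild-type replicate 1, and no fall without Ko-labelled replicates 1, 2 or 3 or wild-type replicates 1 or 3; without wild-type replicate 2 the fall was Psma8, not Psmb9. Without wild-type replicates 1 and 4 together there were 1 rise, Psme1, and 0 falls. The median difference over members (0.101) was 0.041 after quantile normalization, 0.041 after cyclic loess, 0.134 after centring, 0.069 without wild-type replicates 1 and 4, and 0.082 to 0.113 with 1 array left out. That of core subunits (0.100) was 0.029 after quantile normalization and 0.031 after cyclic loess, and that of regulatory particle subunits (0.0975) 0.026 and 0.031. That of assembly factors (0.1975) was 0.149 and 0.147 there, 0.148 with array weights, 0.090 without wild-type replicates 1 and 4, and 0.143 to 0.212 with 1 array left out. The cause of these changes was not tested. Of 531 results of 28 named genes under alternatives, none turned its direction, 80 lost and 14 gained a call. Many of these genes were named for low p-values, which favours a stable direction. Outside the 28, Psma2, Psmb3, Psmd2, Psmd7 and Psme3 turned below 0 after quantile normalization (-0.0216 to -0.0011). Only Psme1 of the 7 called members kept its call under all 11 other settings and all 8 omissions. Same-numbered arrays did not deviate together (correlations -0.0084 to 0.0236, and 0 of 8 arrays correlated best with its own number). Other pairs of arrays had correlations of -0.2169 to 0.1579. No pairing of mice by number was seen, but 4 arrays per group cannot exclude it. With the replicate block 5 members rose (Psma3, Psmb1, Psmd8, Psmd5 and Psme1). In that fit Psmb7, Psmb9, Tap1 and Rps27a did not pass (limma, adjusted p = 0.0563, 0.0729, 0.0775 and 0.0528).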
